A study of Arabidopsis thaliana with 16 samples.

Results

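The malic enzyme genes of *Arabidopsis thaliana* are described here across 4 treatments of germinating seeds labelled *sweet1*. The family has 6 members, *NADP-ME1* (AT2G19900), *NADP-ME2* (AT5G11670), *NADP-ME3* (AT5G25880), *NADP-ME4* (AT1G79750), *NAD-ME1* (AT2G13560) and *NAD-ME2* (AT4G00570), out of 27655 genes in the files. The 6 members were selected by gene ID, and the family itself was chosen on the known response of *NADP-ME1* to ABA in these same libraries. For that reason the values for ABA against the control are given for the members as a description, with no test. Tests are given for the other contrasts. Each of these other contrasts shares libraries with ABA against the control except ABA + Glc against Glc, which shares only its estimate of spread. For ABA + Glc against the control, which uses the same control libraries, the values of *NADP-ME1* are also given with no test. Where a further contrast of *NADP-ME1* reuses the ABA or control libraries, the choice of the family can shift its p-value. Such p-values and calls are a description and no independent support. Of the members, 5 passed the filter on low values and were tested among 17498 genes, and *NADP-ME3* did not pass it.

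Malic enzymes convert malate to pyruvate and CO2 and reduce a pyridine nucleotide as they do so. The NADP-dependent members, *NADP-ME1*, *NADP-ME2* and *NADP-ME3* in the cytosol and *NADP-ME4* in plastids, yield NADPH, which serves biosynthesis and the control of redox state. *NAD-ME1* and *NAD-ME2* encode the subunits of the mitochondrial enzyme, which yields NADH and supplies pyruvate inside the organelle. In germinating oilseeds, malate is formed as stored lipid is broken down, and cytosolic and mitochondrial enzymes draw on it.

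All libraries are labelled Col-0 and *sweet1*, a line with a T-DNA insertion in *SWEET1*, so every treatment shared this label, and wild-type libraries were not analysed here. The seeds were imbibed for 3 d, grown at 22 °C in constant light, moved to liquid medium at 24 h after imbibition, treated there for 6 h and collected at 30 h. Treatments were 5 µM ABA with 60 mM Glc (ABA + Glc), 5 µM ABA, 60 mM Glc, and medium with no addition (control), with 4 biological replicates each. Whole seeds were used, so RNA of embryo, endosperm and seed coat was not separated, and how much each gave is unknown. Fewer cells of a type cannot be told apart from less RNA per cell. Values were deposited under the header TPM (a level per transcript length, so that genes can be compared). They summed to 951008 to 1053766 per library, and 19488 to 20152 genes had a value above 0. No counts were used here, so depth per library is unknown. The fit used the 14 libraries tabulated in the study, whose methods state that outliers were removed, and ABA replicate 3 and ABA + Glc replicate 3 were therefore left out of it. Values of those libraries are given here all the same, and each call that they change is stated.

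*SWEET1*, the sugar transporter gene that carries the T-DNA, ranged over all 16 libraries between 8.29 and 17.59 TPM. The study describes the line as a null mutant in which no *SWEET1* transcript was detected. The gene was above 0 in every library labelled *sweet1*, so its level does not bear out the label. It differs from the study's description of no detected transcript. It does not settle the label, since each gene has a single value in the files, and reads before and after the insertion cannot be separated. No wild-type level is given here to set beside it. No comparison here is between genotypes. ABA-responsive genes used as a check (*RAB18*, *LTI65*, *EM1* and *EM6*) summed to 2418 to 2956 TPM in ABA + Glc libraries, 4002 to 4380 TPM in ABA libraries, 223 to 354 TPM in Glc libraries and 130.1 to 324 TPM in control libraries. Embryo storage and oil body markers (*CRA1*, *CRC*, *AT2S1* and *OLEO1*) summed to 1827 to 2114 TPM in ABA + Glc, 2295 to 2569 TPM in ABA, 353 to 553 TPM in Glc and 256 to 420.3 TPM in control libraries. Endosperm markers (*EXPA2*, *EPR1*, *MAN7* and *ADPG2*) summed to 1615 to 1810 TPM in ABA + Glc, 1379 to 1633 TPM in ABA, 1603 to 1692 TPM in Glc and 1304 to 1609 TPM in control libraries. Within that list *EXPA2* made up most of the sum, *MAN7* passed as 2.83-fold higher with ABA and 1.70-fold higher with Glc than in the control, and *ADPG2* passed as lower with ABA (log2 fold change -0.56, SE 0.08) and higher with Glc (0.56, SE 0.07). Of 6 seed coat markers, *TT10*, *BAN*, *DTX41* and *PER36* were at or near 0 in every library. The sum of all 6 was 14.9 to 18.5 TPM in ABA + Glc, 13.8 to 17.0 TPM in ABA, 18.9 to 20.4 TPM in Glc and 17.1 to 21.9 TPM in control libraries, and both that were tested were lower with ABA than in the control, *BGAL6* (log2 fold change -0.66, SE 0.12) and *RHM2* (-0.31, SE 0.09). The storage sum was higher in every library with ABA than in any without it, as *NADP-ME1* was. *CRA1* was the largest part of that sum in every library. *CRA1* and *OLEO1* each separated in the same way, whereas *CRC* and *AT2S1* overlapped between libraries with and without ABA. With ABA against the control *OLEO1* (log2 fold change 3.75, SE 0.19), *CRA1* (3.40, SE 0.13) and *CRC* (1.08, SE 0.22) were higher, and *AT2S1* did not pass (0.69, SE 0.34, limma adjusted p = 0.135). *CRC* (0.78, SE 0.20) and *CRA1* (0.62, SE 0.12) were also higher with Glc alone. The part of the embryo, endosperm and seed coat markers in the values of *NADP-ME1* was not tested.

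The members lie on 4 chromosomes (TAIR10.1, coordinates from RefSeq). *NADP-ME1* is on the minus strand of chromosome 2 (chr2:8591808-8595559), *NADP-ME2* on the plus strand of chromosome 5 (chr5:3754091-3758342), and *NADP-ME3* on the plus strand of chromosome 5 (chr5:9024334-9028395). *NADP-ME4* is on the minus strand of chromosome 1 (chr1:30007288-30011690), *NAD-ME1* on the plus strand of chromosome 2 (chr2:5649928-5655320), and *NAD-ME2* on the minus strand of chromosome 4 (chr4:242461-246804). Each has 19 exons in its first transcript model except *NADP-ME4*, which has 18. The encoded proteins have 581, 588, 588 and 646 residues for NADP-ME1, NADP-ME2, NADP-ME3 and NADP-ME4, and 623 and 607 residues for NAD-ME1 and NAD-ME2. Over aligned residues, NADP-ME2 and NADP-ME3 are 91.0% identical, whereas NADP-ME1 is 76.9% identical to NADP-ME2, 76.0% to NADP-ME3 and 76.2% to NADP-ME4. NAD-ME1 and NAD-ME2 share 62.4% of residues, and identity between an NADP-dependent and an NAD-dependent member is 42.4% to 45.1%.

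Reads of near-identical genes can be split wrongly between them, so stretches of 31 bases shared between transcripts were counted. None of the 2170 stretches of the *NADP-ME1* transcript occurs in another of 27407 transcripts, so its values do not hinge on how shared reads were divided. *NADP-ME2* and *NADP-ME3* share 26 stretches, 1.08% and 1.25% of their own. *NAD-ME2* shares 7 stretches, 0.3% of its own, with AT4G00560, which overlaps it at its end on the same strand. *NADP-ME4* and *NAD-ME1* share none.

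The sequence before the start of each gene was searched on both strands, from 250 bases before the annotated start to 50 bases after it, for the core of the ABA response element (ACGTG), the G-box (CACGTG, which contains that core on both strands) and the core of the RY motif (CATGCA). The ABA response element is the sequence bound by the bZIP factors of ABA signalling. Of the 6 members, 3 held at least 1 ACGTG, beside 26.7% of 27443 promoters of the same length. *NADP-ME1*, the member with the large difference under ABA, held 1 copy, which begins 37 bases before its start and lies in the 45 bases that separate it from the neighbouring gene AT2G19910. *NADP-ME4* held 1 copy, beginning 124 bases before its start. *NAD-ME2* held 2 G-boxes, beginning 241 and 151 bases before its start, and 7.7% of all promoters held at least 1. No member held CATGCA, which 9.7% of promoters held. These sequences are shown because they are the members with a match, and capitals mark ACGTG on either strand. They are written 5′ to 3′ on the strand of the gene and end at the base before its start (chr2:8595560-8595604 for *NADP-ME1*, chr1:30011691-30011940 for *NADP-ME4* and chr4:246805-247054 for *NAD-ME2*, TAIR10.1, minus strand in each case).
NADP-ME1: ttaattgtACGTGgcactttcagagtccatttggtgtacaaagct
NADP-ME4: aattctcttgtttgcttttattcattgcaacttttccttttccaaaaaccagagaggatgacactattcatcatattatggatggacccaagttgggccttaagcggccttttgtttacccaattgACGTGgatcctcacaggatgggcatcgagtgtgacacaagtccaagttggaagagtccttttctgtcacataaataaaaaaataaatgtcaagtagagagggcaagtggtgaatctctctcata
NAD-ME2: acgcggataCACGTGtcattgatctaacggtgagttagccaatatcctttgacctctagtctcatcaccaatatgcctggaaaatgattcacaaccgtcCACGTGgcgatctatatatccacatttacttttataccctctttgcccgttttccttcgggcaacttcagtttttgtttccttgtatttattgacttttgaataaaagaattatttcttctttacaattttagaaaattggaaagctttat
A match is a description of these letters and was not tested as a site. *NAD-ME2* held the most matches, since each of its G-boxes contains the core on both strands. How matches relate to levels was not tested.

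*NADP-ME1*, a cytosolic NADP-dependent enzyme, was at 2.17 TPM or less in every library without ABA and next to the most abundant member in every library with ABA alone. In ABA replicates 1 to 4 it was at 54.2, 52.6, 51.8 and 51.6 TPM, against 1.35, 0.92, 2.17 and 1.35 TPM in control replicates 1 to 4. Every ABA library thus stood far above every control library, and the ABA libraries were the most uniform of the 4 treatments, with a coefficient of variation of 2.5% in ABA and 36.1% in the control. Means over the libraries in the fit were 52.8 ± 1.33 TPM with ABA (SD, n = 3) and 1.45 ± 0.52 TPM in the control (SD, n = 4). The log2 fold change, on the scale log2(TPM + 0.5) used for all differences here, was 4.81 (SE 0.15), 28.1-fold. On that scale the difference ranked 10 of 17498 genes from the highest. The 1 member of 5 past the threshold is the one the family was chosen on, and over all genes tested 10.4% were higher and 13.3% lower with ABA.

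**Figure D1:**
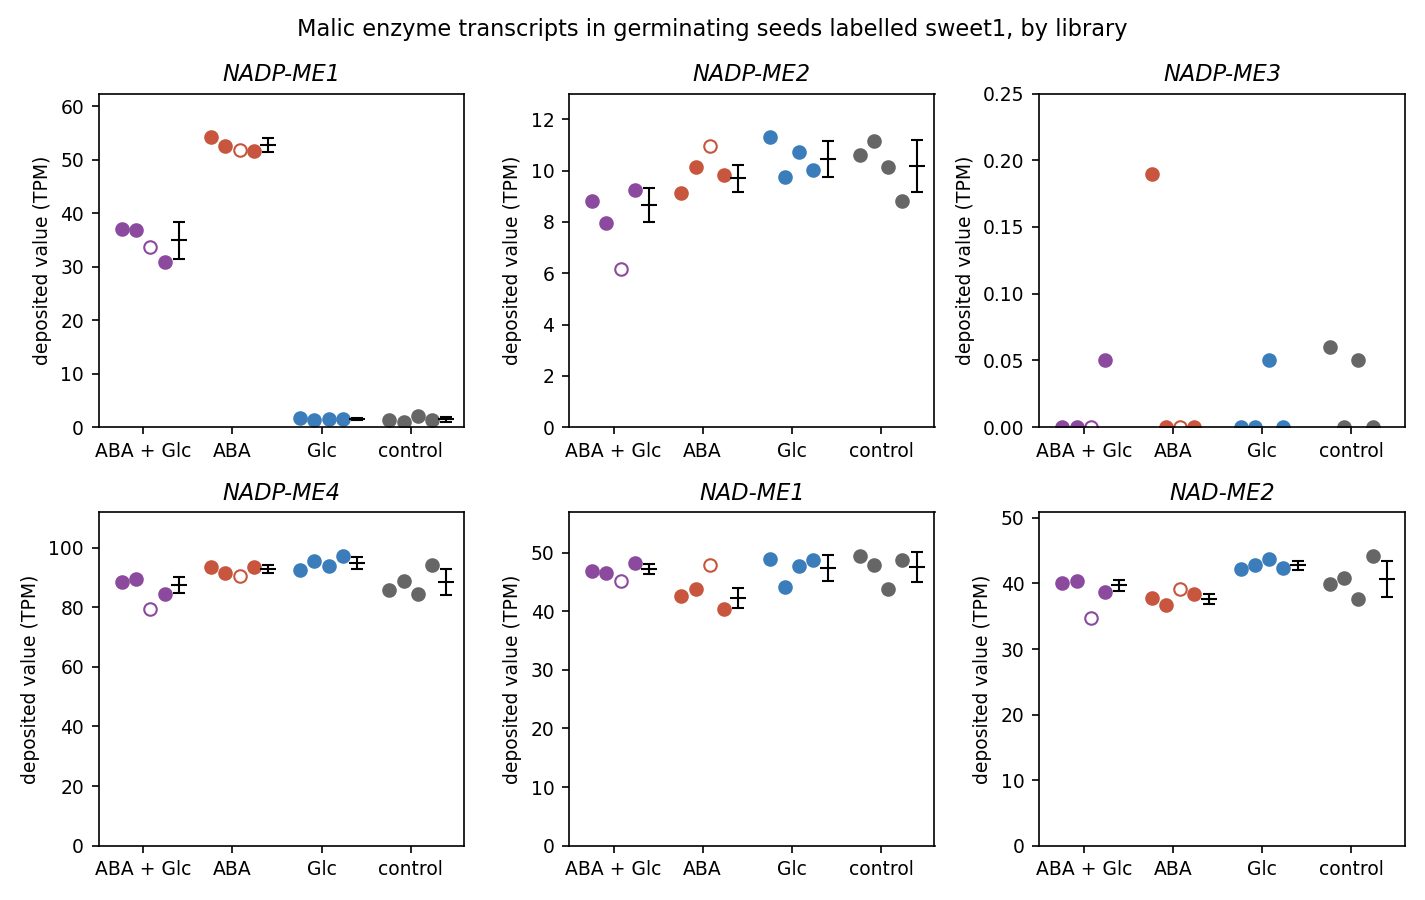
Deposited value (TPM, axes from 0) of each malic enzyme gene in each library, with replicates 1 to 4 from left to right within ABA + Glc, ABA, Glc and control. Open circles are the libraries left out of the fit, and bars are the mean ± SD of the libraries in the fit (not drawn for *NADP-ME3*). *NADP-ME1* sits between 51.6 and 54.2 TPM with ABA and between 0.92 and 2.17 TPM in the control, while the other members overlap between treatments or differ by little.

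With both ABA and Glc, *NADP-ME1* stayed far above the control and below ABA alone. In ABA + Glc replicates 1 to 4 it was at 37.0, 36.9, 33.7 and 30.8 TPM, lower in all 4 than in any ABA library and higher in all 4 than in any control or Glc library. ABA + Glc libraries averaged 34.9 ± 3.51 TPM (SD, n = 3). Against the control libraries, on which the family was chosen, the log2 fold change was 4.22 (SE 0.15), 18.6-fold, given as a description with no test. The gene ranked 10 from the highest in that contrast too. Against Glc the log2 fold change was 4.16 (SE 0.15, limma adjusted p = 3.67e-11), rank 6 from the highest. These contrasts share the ABA + Glc libraries. *NADP-ME1* was the 1 member of 5 past the threshold in each of them, and it is the one the family was chosen on. Among all genes, 6.95% were higher and 10.1% lower with ABA + Glc than in the control, and 5.43% were higher and 6.01% lower with ABA + Glc than with Glc.

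Adding Glc to ABA gave a log2 fold change of -0.60 for *NADP-ME1* (SE 0.16, 95% interval -0.94 to -0.25), short of the threshold (limma adjusted p = 0.0595). The family was chosen on high values in these same ABA libraries, which favours a lower value with ABA + Glc. This p-value and the calls below are therefore a description. The groups did not overlap, and 0.732% of genes were higher and 1.91% lower in this contrast. The call rests on the libraries used and on the settings of the fit, and it was made in 8 of 24 alternatives. Fitted on only the groups compared, ABA and ABA + Glc (n = 3 each), it passed by limma (SE 0.07, adjusted p = 0.00229). In the same 14 libraries as the main fit, it also passed with a pseudocount of 1 (adjusted p = 0.0249) and with a replicate block (adjusted p = 0.0464). With all 16 libraries the value was also -0.60 and passed (adjusted p = 0.0154), and it passed with ABA replicate 3 added alone (adjusted p = 0.0304) and with ABA + Glc replicate 3 added alone (adjusted p = 0.0397). It also passed without control replicate 2 (adjusted p = 0.0231) and without control replicate 3 (adjusted p = 0.00821), which enter this contrast only through the shared estimate of spread and the adjustment over all genes. No other member passed, so 0 of 5 did in the fit, with 2 at an unadjusted p under 0.05.

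Glc without ABA gave values of *NADP-ME1* like those of the control. Glc replicates 1 to 4 held 1.63, 1.28, 1.48 and 1.51 TPM, all within the range of the control libraries, with a mean of 1.48 ± 0.15 TPM (SD, n = 4). The log2 fold change was 0.05 (SE 0.14, limma adjusted p = 0.862), and its 95% interval of -0.25 to 0.36 still includes differences as large as the minimum of 0.29 that a call needed. The Glc effect with ABA minus that without ABA was -0.65 (SE 0.22, 95% interval -1.11 to -0.19) and did not pass (adjusted p = 0.113). Without control replicate 3, the highest control library for this gene, it was -0.81 and passed (adjusted p = 0.00753). Both contrasts reuse libraries that the family was chosen on, so their p-values for *NADP-ME1* are a description. Over all genes, 1.14% were higher and 2.95% lower with Glc than in the control, and 1.79% had a more positive and 1.94% a more negative Glc effect with ABA than without it. The members gave 0 of 5 in both contrasts by limma, with 1 and 3 at an unadjusted p under 0.05.

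The share of the ABA difference in TPM that was left when Glc was added was computed as the difference between ABA + Glc and control means over that between ABA and control means. For *NADP-ME1* it was 65.1%, and 64.8% over all 16 libraries. The median over the 1815 genes higher with ABA was 63.4%, and *NADP-ME1* lay at percentile 53.4 of them. Among the 181 of these that were at least 4-fold higher, the median was 61.2% and *NADP-ME1* lay at percentile 62.4. Well-known ABA-responsive genes gave 64.2% for *EM1*, 62.5% for *EM6*, 51.1% for *LTI65* and 43.4% for *RAB18*. By this measure *NADP-ME1* was near the middle of the ABA-higher genes, and the value is a description, since it divides differences that share the control libraries. These genes, like *NADP-ME1*, were also picked for high values in the same ABA libraries, which can lower the share.

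**Figure D2:**
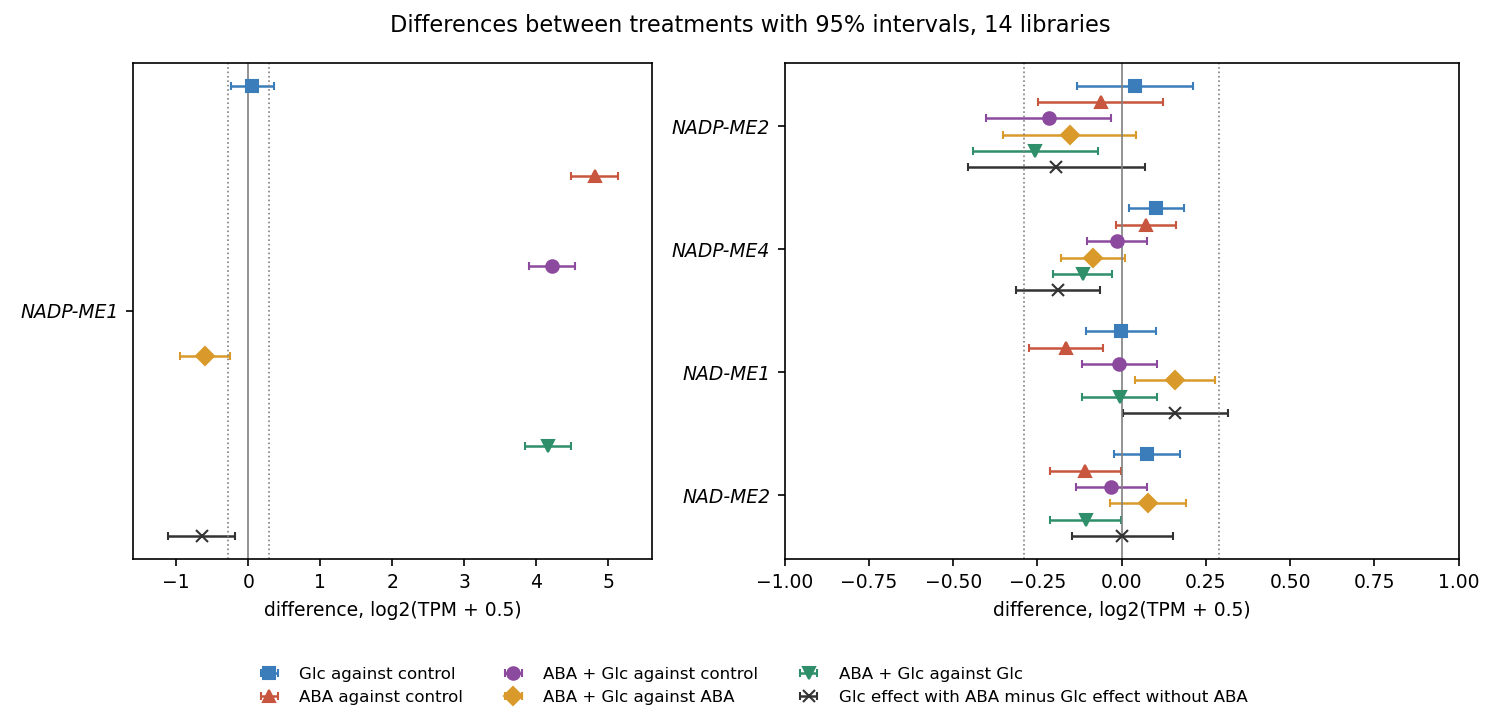
Differences on the log2(TPM + 0.5) scale with 95% intervals for the 5 members tested, in the fit of 14 libraries, with *NADP-ME1* in the left panel on a wider axis. Dotted lines mark the minimum of 0.29 in either direction, and every estimate of the other 4 members lies between them, from -0.26 to 0.16.

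The genes whose pattern was most like that of *NADP-ME1* were looked for among 10886 genes with at least 10 TPM in their highest group, by Pearson's r of log2(TPM + 0.5) over the 14 libraries. These were AT2G42560 (r = 0.9974), *LTI65* (r = 0.997), AT4G36600 (r = 0.9965), *KIN1* (r = 0.9961) and *RD29A* (r = 0.9951). *LTI65*, also called *RD29B*, *RD29A* and *KIN1* are genes known for their induction by ABA, drought and cold. The libraries fall into those with and those without ABA, and this split sets most of each r, which is given as a measure of likeness alone. *KIN1* shares 7.88% of its 31-base stretches with *KIN2*, so its values are less certain.

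Since these 5 genes were picked for following *NADP-ME1* over these libraries, their differences are given as a description, with no test. With Glc alone their log2 fold changes were -0.16 to 0.28. *RD29A* was at 50.4, 49.2, 44.4 and 40.0 TPM in ABA + Glc replicates 1 to 4, against 103.3, 82.2, 102.4 and 85.6 TPM in ABA replicates 1 to 4. With ABA + Glc against ABA, the log2 fold change was -0.93 for *LTI65* (SE 0.15), -0.95 for *RD29A* (SE 0.19), -0.76 for AT4G36600 (SE 0.15), -0.65 for AT2G42560 (SE 0.23) and -0.48 for *KIN1* (SE 0.18), beside -0.60 for *NADP-ME1* (SE 0.16).

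**Figure D3:**
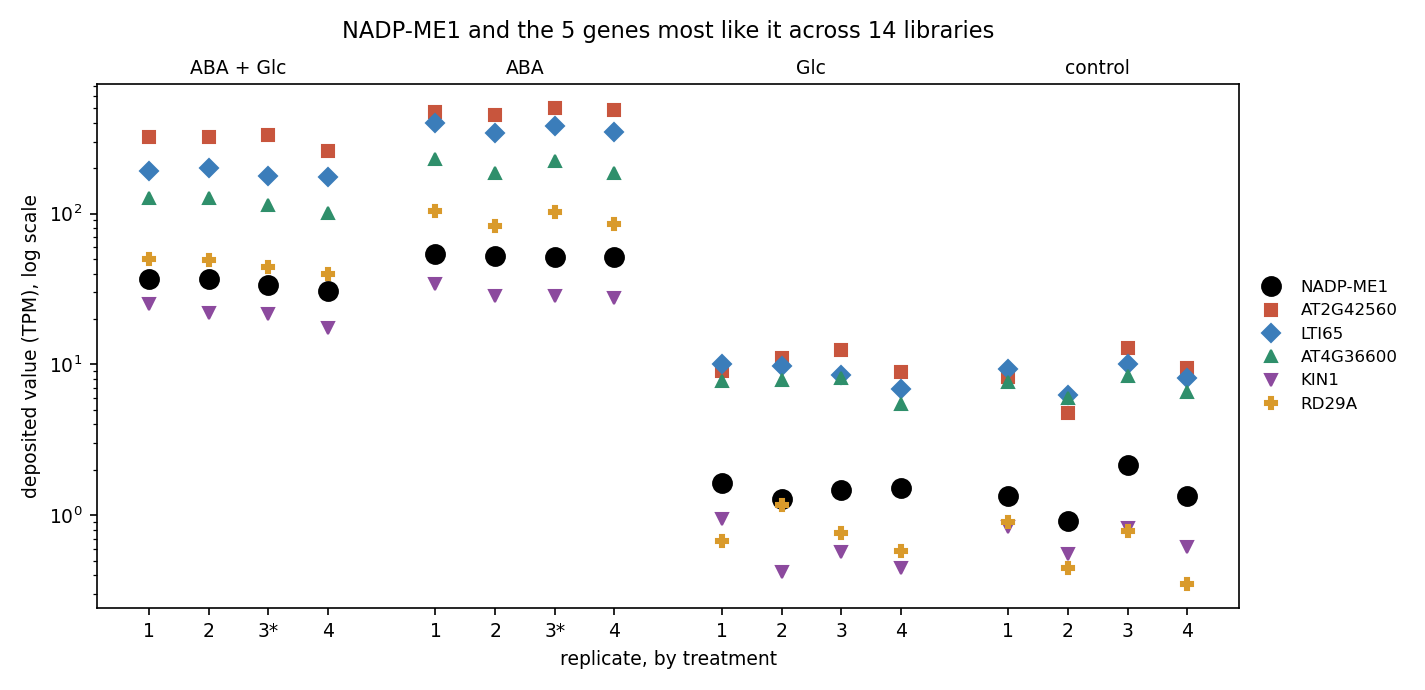
Deposited value (TPM, log axis) of *NADP-ME1* and the 5 genes most like it in each library, in ABA + Glc, ABA, Glc and control. Asterisks mark the libraries left out of the fit. All 6 genes are higher in every library with ABA than in any without it, and all 6 are lower in every ABA + Glc library than in any ABA library. The 5 genes were picked for following *NADP-ME1* over these libraries, so their like pattern is not independent of that choice.

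*NADP-ME2*, the other cytosolic member with a measurable level, was at about 10 TPM in most libraries. Its values were 8.82, 7.95, 6.18 and 9.25 TPM in ABA + Glc replicates 1 to 4, and 9.11, 10.16, 10.97 and 9.83 TPM in ABA replicates 1 to 4. They were 11.31, 9.76, 10.72 and 10.02 TPM in Glc replicates 1 to 4, against 10.59, 11.17, 10.13 and 8.82 TPM in control replicates 1 to 4. ABA + Glc libraries were the lowest of the 4 treatments, did not overlap with the Glc libraries, and overlapped with ABA and, by control replicate 4, with the control.

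For *NADP-ME2*, ABA against the control gave a log2 fold change of -0.06 (SE 0.09) and the libraries overlapped. ABA + Glc gave -0.22 against the control (SE 0.09, limma adjusted p = 0.0816) and -0.26 against Glc (SE 0.09, adjusted p = 0.0568), both short of the threshold in size and in p. With ABA + Glc replicate 3 among all 16 libraries, they were -0.33 (adjusted p = 0.0316) and -0.37 (adjusted p = 0.0252) and passed. That library held 6.18 TPM, the lowest of the 16. The call against the control was made only in fits that held it, whereas that against Glc was also made in the 14 libraries with equal library sums (-0.32, adjusted p = 0.0162). Against ABA, ABA + Glc gave -0.15 (SE 0.09, adjusted p = 0.477, 95% interval -0.35 to 0.04). Glc alone gave 0.04 (SE 0.08, adjusted p = 0.824, 95% interval -0.13 to 0.21), and the interaction was -0.19 (SE 0.12, adjusted p = 0.45).

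The genes most like *NADP-ME2* by the same measure were *SYP121* (r = 0.8446), a syntaxin of the plasma membrane, *ULP1C* (r = 0.8325), a SUMO protease, AT3G06760 (r = 0.8164), AT3G28480 (r = 0.8052) and *ASB1* (r = 0.7827), a subunit of anthranilate synthase. These coefficients are lower than those for *NADP-ME1*, over the same 14 libraries. The genes were picked as the highest of 10886, so each r is a measure of likeness alone. Within the 6 ABA and ABA + Glc libraries r was 0.914 for *SYP121*, 0.675 for *ULP1C*, 0.674 for AT3G06760, 0.362 for AT3G28480 and 0.601 for *ASB1*. *ASB1* shares 45.82% of its 31-base stretches with other genes, so its values are uncertain.

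*NADP-ME3*, the third cytosolic member, was listed at 0 in 11 of 16 libraries and at 0.05 to 0.19 TPM in the rest. The highest value was in ABA replicate 1, and the other ABA libraries were at 0. It was below the filter of 0.5 TPM in every library, so no difference could be tested. With ABA, the cytosolic group was therefore led by *NADP-ME1* and without ABA by *NADP-ME2*. The ratio of *NADP-ME1* to *NADP-ME2* was 4.05 ± 0.66 in ABA + Glc (SD, n = 3), 5.46 ± 0.43 in ABA (SD, n = 3), 0.141 ± 0.0084 in Glc (SD, n = 4) and 0.144 ± 0.055 in the control (SD, n = 4). The share of *NADP-ME1* in the sum of the 3 cytosolic members was 79.9% in ABA + Glc, 84.4% in ABA, 12.3% in Glc and 12.4% in the control. In every library with ABA *NADP-ME1* was the higher of the pair, and in every library without it *NADP-ME2* was.

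*NADP-ME4*, which encodes the plastid enzyme, was the most abundant member in every library. Its values in ABA + Glc replicates 1 to 4 were 88.3, 89.4, 79.5 and 84.5 TPM, and in ABA replicates 1 to 4 they were 93.5, 91.4, 90.4 and 93.5 TPM. Glc replicates 1 to 4 held 92.5, 95.5, 93.7 and 97.3 TPM, against 85.8, 88.9, 84.3 and 94.2 TPM in control replicates 1 to 4. Glc and control libraries overlapped through control replicate 4, while all ABA + Glc libraries lay below all ABA and all Glc libraries. The lowest and highest of all 16 values differed by a factor of 1.23.

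No contrast of *NADP-ME4* passed. The log2 fold change was 0.10 with Glc (SE 0.04, limma adjusted p = 0.126, 95% interval 0.02 to 0.18), -0.01 with ABA + Glc against the control (SE 0.04, adjusted p = 0.847, 95% interval -0.10 to 0.07) and 0.07 with ABA against the control (SE 0.04). ABA + Glc gave -0.09 against ABA (SE 0.04, adjusted p = 0.384) and -0.12 against Glc (SE 0.04, adjusted p = 0.0704). The interaction was -0.19 (SE 0.06, adjusted p = 0.0899, 95% interval -0.31 to -0.06). Each interval for a difference between treatments lay within the minimum of 0.29 for a call, so a larger change of this gene was outside them.

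*NAD-ME1* and *NAD-ME2*, the subunits of the mitochondrial enzyme, were at similar levels to each other in all treatments. *NAD-ME1* was at 46.9, 46.5, 45.1 and 48.2 TPM in ABA + Glc replicates 1 to 4 and at 42.6, 43.8, 47.9 and 40.4 TPM in ABA replicates 1 to 4. It was at 48.9, 44.2, 47.8 and 48.8 TPM in Glc replicates 1 to 4 and at 49.5, 47.9, 43.8 and 48.8 TPM in control replicates 1 to 4. Its ABA libraries tended to be the lowest, although ABA replicate 3, which was left out of the fit, lay among the control libraries. ABA against the control gave a log2 fold change of -0.17 (SE 0.05), below the minimum for a call, and -0.12 with all 16 libraries.

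In the tested contrasts of *NAD-ME1*, ABA + Glc gave 0.16 against ABA (SE 0.06, limma adjusted p = 0.164, 95% interval 0.04 to 0.28), -0.01 against the control (SE 0.05, adjusted p = 0.939) and -0.01 against Glc (SE 0.05, adjusted p = 0.959). Glc alone gave -0.00 (SE 0.05, adjusted p = 0.988, 95% interval -0.10 to 0.10), and the interaction was 0.16 (SE 0.07, adjusted p = 0.271). None passed.

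*NAD-ME2* was at 40.0, 40.4, 34.7 and 38.8 TPM in ABA + Glc replicates 1 to 4 and at 37.8, 36.7, 39.2 and 38.3 TPM in ABA replicates 1 to 4. Glc replicates 1 to 4 held 42.3, 42.8, 43.8 and 42.4 TPM, and control replicates 1 to 4 held 39.9, 40.8, 37.6 and 44.3 TPM. All 4 Glc libraries lay above all ABA and ABA + Glc libraries, whereas the control libraries overlapped with each of the other treatments. ABA against the control gave -0.11 (SE 0.05). Glc gave 0.08 (SE 0.05, limma adjusted p = 0.356), ABA + Glc gave -0.03 against the control (SE 0.05, adjusted p = 0.708), 0.08 against ABA (SE 0.05, adjusted p = 0.545) and -0.11 against Glc (SE 0.05, adjusted p = 0.176). The interaction was 0.00 (SE 0.07, adjusted p = 0.995, 95% interval -0.15 to 0.15), and no contrast passed.

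The ratio of *NAD-ME1* to *NAD-ME2* was 1.19 ± 0.049 in ABA + Glc (SD, n = 3), 1.12 ± 0.070 in ABA (SD, n = 3), 1.11 ± 0.059 in Glc (SD, n = 4) and 1.17 ± 0.058 in the control (SD, n = 4). The ranges of this ratio over the libraries in the fit overlapped between all treatments. The summed level of both subunits was 86.9 TPM in ABA + Glc, 79.9 TPM in ABA, 90.2 TPM in Glc and 88.1 TPM in the control.

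The order of the members by level changed with ABA through *NADP-ME1* alone. With ABA it was *NADP-ME4*, *NADP-ME1*, *NAD-ME1*, *NAD-ME2*, *NADP-ME2* and *NADP-ME3*, and the ranges over the 4 libraries of neighbours in this order did not overlap. In the control it was *NADP-ME4*, *NAD-ME1*, *NAD-ME2*, *NADP-ME2*, *NADP-ME1* and *NADP-ME3*, and *NAD-ME1* and *NAD-ME2* overlapped. The order with Glc was that of the control, with no overlap between neighbours. With ABA + Glc it was *NADP-ME4*, *NAD-ME1*, *NAD-ME2*, *NADP-ME1*, *NADP-ME2* and *NADP-ME3*, and *NAD-ME2* and *NADP-ME1* overlapped through ABA + Glc replicate 3.

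Summed over the 6 genes, the family stood at 217.89 ± 5.47 TPM in ABA + Glc (SD, n = 3), 235.2 ± 1.99 TPM in ABA (SD, n = 3), 196.9 ± 2.69 TPM in Glc (SD, n = 4) and 188.1 ± 7.98 TPM in the control (SD, n = 4). Each ABA library was above each library without ABA, with *NADP-ME1* in the sum. Without *NADP-ME1* the sums were 183.0 ± 1.96 TPM in ABA + Glc, 182.4 ± 0.68 TPM in ABA, 195.4 ± 2.61 TPM in Glc and 186.7 ± 8.36 TPM in the control, and ABA and control libraries overlapped. *NADP-ME1* made up 15.99% of the family sum in ABA + Glc, 22.4% in ABA, 0.749% in Glc and 0.777% in the control. NADP-dependent members together made up 60.1% in ABA + Glc, 66.0% in ABA, 54.2% in Glc and 53.2% in the control. After scaling all libraries to equal sums, the family totals were 215.2 TPM in ABA + Glc, 225.4 TPM in ABA, 203.6 TPM in Glc and 189.6 TPM in the control, in the same order.

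**Figure D4:**
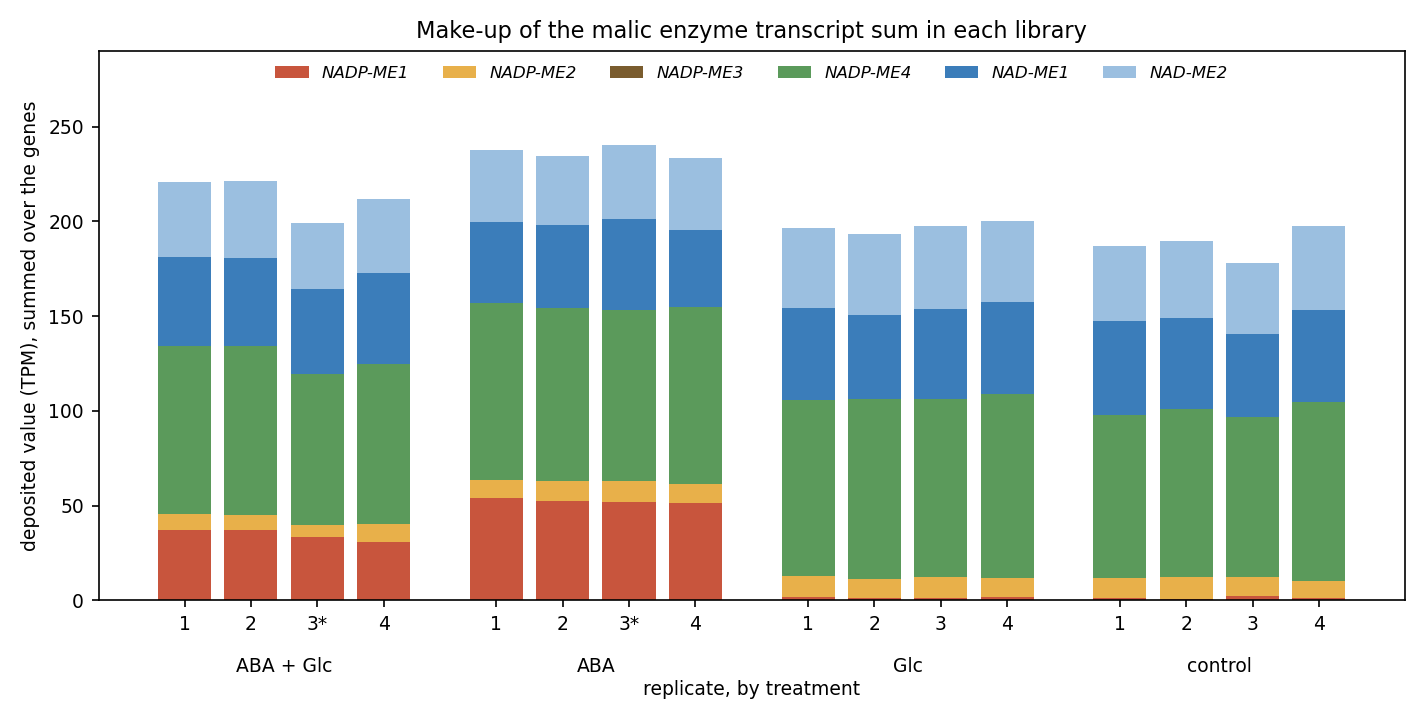
Deposited values (TPM, axis from 0) of the 6 malic enzyme genes stacked for each library, in ABA + Glc, ABA, Glc and control. Asterisks mark the libraries left out of the fit. The *NADP-ME1* segment at the base of each bar is 30.8 TPM or more in every library with ABA and 2.17 TPM or less in every library without it.

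ABA + Glc replicate 3 was the lowest of its group for *NADP-ME2*, *NADP-ME4*, *NAD-ME1* and *NAD-ME2*, and its family sum of 199.1 TPM was below the 211.6 to 221.1 TPM of the other ABA + Glc libraries. The share of *NADP-ME1* in that sum was 16.9% there and 14.6% to 16.7% in the others. ABA replicate 3 held 240.2 TPM, the highest family sum of the 16 libraries.

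Genes of other steps around malate and pyruvate were counted list by list, beside the shares of all genes given above. Against the control these were 10.4% higher and 13.3% lower with ABA, 6.95% higher and 10.1% lower with ABA + Glc, and 1.14% higher and 2.95% lower with Glc. Of 8 malate dehydrogenases tested, which interconvert malate and oxaloacetate, 1 was higher with ABA, the cytosolic *MDH2* (AT5G43330, log2 fold change 0.31, SE 0.06, limma adjusted p = 0.000643), and the call was lost with all 16 libraries and with equal library sums. None of the 8 passed with Glc or with ABA + Glc against the control, by limma, where 4 and 3 had an unadjusted p under 0.05. Of 4 genes of PEP carboxylases and PEP carboxykinases tested, none passed in any contrast, with at most 2 at an unadjusted p under 0.05. The median log2 fold change with ABA was 0.05 for the malate dehydrogenases and 0.04 for the PEP group, beside -0.00 over all genes tested.

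*PPDK* (AT4G15530), which encodes pyruvate orthophosphate dikinase, was at 92.6, 95.8, 88.2 and 91.1 TPM in ABA + Glc replicates 1 to 4, 94.6, 87.3, 102.6 and 86.4 TPM in ABA replicates 1 to 4 and 135.5, 125.7, 111.0 and 132.2 TPM in control replicates 1 to 4. It was lower than in the control with ABA (-0.49, SE 0.06, limma adjusted p = 7.22e-06) and with ABA + Glc (-0.43, SE 0.06, adjusted p = 4.04e-05), with no overlap in either. It was the 1 gene of 3 to pass in its list of fumarase, malate synthase and *PPDK*. The enzyme of *PPDK* uses pyruvate, but *E1 ALPHA* of pyruvate dehydrogenase, which also uses it, was higher with ABA (0.35, SE 0.04). *NADP-ME1*, whose enzyme forms pyruvate, was higher with ABA, whereas *NAD-ME1*, which also forms it, was not (-0.17, SE 0.05). A relation between these genes was not tested.

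Among 8 malate and dicarboxylate transporters tested, 1 was higher and 2 lower with ABA (10.4% and 13.3% of all genes), and 2 were higher and 1 lower with ABA + Glc (6.95% and 10.1% of all genes), each against the control. *PUMP4* (AT4G24570, the mitochondrial dicarboxylate carrier *DIC2*) was lower in both, with a log2 fold change of -0.98 with ABA (SE 0.14, limma adjusted p = 3.57e-05) and -0.53 with ABA + Glc (SE 0.14, adjusted p = 0.00944). *DIT2-2*, a plastid dicarboxylate transporter, was higher in both, by 0.38 (SE 0.06, adjusted p = 0.00022) and 0.31 (SE 0.06, adjusted p = 0.00216). *DIT2-1* was lower with ABA (-0.31, SE 0.05, adjusted p = 0.000227), and the vacuolar malate channel gene *ALMT9* was higher with ABA + Glc (0.33, SE 0.08, adjusted p = 0.00454). These counts depend on the libraries, since with all 16 the list gave 2 higher and 1 lower with ABA, and 1 higher and 3 lower with ABA + Glc. Against Glc, 1 was higher with ABA + Glc (5.43% of all genes), *ALMT9* (0.36, SE 0.08, adjusted p = 0.00369). In that contrast 2 were lower (6.01% of all genes), *PUMP4* (-0.65, SE 0.14, adjusted p = 0.00302) and *DIT1* (-0.29, SE 0.05, adjusted p = 0.001). *DIT2-2* alone passed for the interaction (-0.34, SE 0.09, adjusted p = 0.0476), where 1.79% of all genes passed as more positive and 1.94% as more negative.

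Of 9 genes tested for pyruvate carriers and the E1 part of pyruvate dehydrogenase, which takes pyruvate to acetyl-CoA, 1 was higher and 1 lower with ABA, and again with ABA + Glc, each against the control. *PDH-E1 BETA* (AT1G30120), of the plastid complex, was lower, with a log2 fold change of -0.61 with ABA (SE 0.09, limma adjusted p = 5.15e-05), -0.48 with ABA + Glc (SE 0.09, adjusted p = 0.000812), and -0.35 with ABA + Glc against Glc (SE 0.09, adjusted p = 0.0123). *E1 ALPHA* (AT1G59900), of the mitochondrial complex, was higher by 0.35 with ABA (SE 0.04, adjusted p = 3.39e-06) and 0.29 with ABA + Glc (SE 0.04, adjusted p = 3.57e-05), and both calls were lost with equal library sums.

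Other dehydrogenases that form NADPH, as the NADP-dependent malic enzymes do, were set beside them. Of 12 tested, 1 was higher with Glc (1.14% of all genes), 1 higher and 1 lower with ABA (10.4% and 13.3%), and 1 higher with ABA + Glc (6.95%), each against the control. The higher one was *G6PD6* (AT5G40760, a cytosolic glucose-6-phosphate dehydrogenase) in all 3, by 0.31 with Glc (SE 0.07, limma adjusted p = 0.0157), 0.59 with ABA (SE 0.08, adjusted p = 2.03e-05) and 0.47 with ABA + Glc (SE 0.08, adjusted p = 0.00029). Its Glc effect was smaller with ABA than without it (-0.43, SE 0.11, adjusted p = 0.0359). *G6PD2*, a plastid form, was lower with ABA (-0.36, SE 0.06, adjusted p = 0.000282). Over all 16 libraries the Glc and interaction calls of this list were lost. On the log2 scale, the largest of these differences, 0.59 for *G6PD6* with ABA, stood beside 4.81 for *NADP-ME1* in the same contrast.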

How the data were processed

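RNA of whole germinating seeds labelled *sweet1* was sequenced with paired-end reads, on an instrument that the labels and the study's methods name differently. Per the labels and the study's methods, the authors used Trimmomatic 0.38 to trim reads, kallisto 0.44.0 to quantify primary transcripts and sleuth for tests. The files hold 1 deposited score for each gene, headed TPM. How the authors rescaled it across libraries was not given in the sources used here, so counting error is unknown and replicate spread alone sets the precision.

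Libraries were grouped by the treatment in their labels. Genes above 0.5 TPM in 50% or more of the 14 libraries entered 1 limma model (version 3.58.1, R 4.3.3) of the 4 group means on log2(TPM + 0.5), with a variance trend and no replicate term, since only 1 of 19 same-numbered pairs deviated together (r over 0.1). To pass, a gene needed an adjusted p (Benjamini-Hochberg, 17498 genes) below 0.05 and a log2 fold change of 0.29 or more in size, which is 0.2 in natural log units, as in the study. The pseudocount understates changes of low genes. The study's sleuth test needs counts, which were not used here.

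The members, lists and tests were chosen with earlier results of these data known. Genes named are the 6 members, the 5 most like *NADP-ME1* and *NADP-ME2*, up to 3 passing members per list and contrast, *SWEET1*, and markers. Sequences and gene models are from RefSeq (TAIR10.1), which matched 27445 of 27655 genes, and proteins were aligned with Biopython 1.88 (BLOSUM62, global). Alternatives were all 16 libraries, each left-out library added, a replicate block, only the groups compared, equal library sums, other pseudocounts and filters, no variance trend, and each library left out in turn.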

Additional observations from a re-analysis of the deposited data

How the results depend on the processing

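Over 25 alternatives, 725 of 739 values of the 5 tested members kept their direction and side of the threshold, or were not called on either side, and 14 passed where they had not. None was reversed, and none was lost where the member was still tested. Settings whose filter removed a member gave no value for it and are not counted. The log2 fold change of *NADP-ME1* with ABA + Glc against ABA was -0.64 to -0.51 with each library left out in turn.

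The filter of 10 TPM removed *NADP-ME1*, so that 0 members passed with ABA against the control and with ABA + Glc against the control or Glc. It left 1068 genes higher and 1292 lower with ABA, and 694 and 931 with ABA + Glc, each against the control (1815, 2324, 1216 and 1766 in the fit), and 568 higher and 574 lower with ABA + Glc against Glc (951 and 1051), as fewer genes were tested. Members that passed with ABA + Glc against ABA numbered 1 with all 16 libraries, with either left-out library added, with a replicate block, with only the groups compared and with a pseudocount of 1. Members that passed numbered 2 with all 16 libraries or ABA + Glc replicate 3 added, for ABA + Glc against the control and against Glc, and 2 with equal library sums against Glc. ABA + Glc replicate 3 added gave 129 genes higher and 340 lower with Glc (200 and 516), and 196 with a more positive Glc effect with ABA (313). Equal library sums gave 310 higher with Glc, and the cause was not tested.

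Leaving out each library gave 324 to 518 genes lower with Glc, 66 to 143 higher and 192 to 366 lower with ABA + Glc against ABA (128 and 335), 206 to 335 with a more positive Glc effect with ABA, and 0 to 1 members in each of the last 2 contrasts. The lowest came without control replicate 1 (324), ABA + Glc replicate 1 (66 and 206) and ABA replicate 1 (192). Without ABA replicate 2, ABA + Glc replicate 2 and ABA + Glc replicate 4, 74, 71 and 85 were higher with ABA + Glc against ABA, and without ABA + Glc replicate 1, 218 were lower.

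With the replicate block, *NADP-ME1* passed for ABA + Glc against ABA (-0.60, adjusted p = 0.0464), and all-gene counts were 203 and 514 for Glc and 1817 and 2336 for ABA, each against the control. Replicate numbers did not pair the libraries (r -0.065 to 0.123 over 19 pairs, 6 of 14 libraries closest to their own number). Scaling to equal sums moved the share of higher genes among those called to 43.1% with Glc (27.9% in the fit), 30.6% with ABA (43.9%), 41.5% with ABA + Glc against ABA (27.6%) and 33.1% against Glc (47.5%), while the median gene moved by less than 0.1 on the log2 scale.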
